A study of Caenorhabditis elegans with 2 samples.

Results

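The genes examined here encode the xenobiotic metabolism enzymes of phase I and phase II in the nematode Caenorhabditis elegans. They were chosen by name, as every protein-coding gene whose symbol in the WBcel235 annotation is cyp-, ugt-, gst-, gsto- or gstk- followed by a digit. The rule found 190 genes among the 19973 protein-coding genes of the nuclear chromosomes. There were 74 cytochrome P450 genes (P450), 67 UDP-glucuronosyltransferase genes (UGT) and 49 glutathione S-transferase genes (GST). The last group held 44 genes named gst-, 3 named gsto- and 2 named gstk-.

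Chromatin immunoprecipitation with sequencing (ChIP-seq) was used to find where the nuclear hormone receptor NHR-28 sits on the genome. It was tagged with eGFP, a green fluorescent protein, and came from the transgene wgIs317 in strain OP317, whose genotype also names the unc-119(ed3) mutation on chromosome III. Both samples were L1 larvae, the larval stage that follows hatching, taken as whole organisms with both sexes pooled and with no age given. They form 1 group of 2 biological replicates, and no untagged or treated group was analysed here. Because whole larvae were used, binding in a few cells and weak binding in many cells cannot be told apart, and with 1 group all counts below are descriptions without a test.

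Cytochrome P450 enzymes insert an oxygen atom into lipophilic compounds, the phase I step that gives a foreign molecule a reactive group. In phase II, UDP-glucuronosyltransferases attach a sugar and glutathione S-transferases attach glutathione, which makes the product more soluble and easier to excrete. In C. elegans these families are large, many of their genes stand next to their closest relatives, and many are expressed in the intestine. Several respond to drugs or oxidants through transcription factors such as SKN-1 and nuclear hormone receptors. Some P450 enzymes instead make or modify endogenous hormones and fatty acids.

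The sequences below show what the strongest regions near these genes look like. They are the 4 regions that passed the authors' threshold and the highest region at a P450 gene, each as 200 bases centred on the summit, the position of highest signal. Bases were read from the RefSeq genome of the WBcel235 assembly, the same assembly as ce11, and run 5′ to 3′ along the gene, with coordinates on the reference strand. Capitals mark every match, on either strand, to 11 short motifs. These were AGGTCA for nuclear receptors, TGATAA for GATA factors, TGTTTAC for forkhead factors, GTCATCA for SKN-1 and TGACTCA for bZIP factors of the AP-1 type. The others were TGACNNNGC for the antioxidant response element, GCGTG for the aryl hydrocarbon receptor, CACGTG for bHLH factors, GGGCGG for GC boxes, and the repeat GAGAGA and the word CTGCGTC, which were given no factor. The window of gst-5 lies on chrII:10950131-10950330 and that of ugt-58 on chrII:9586888-9587087. The window of ugt-13 lies on chrV:4908706-4908905, that of ugt-20 on chrIV:6083730-6083929 and that of cyp-33E3 on chrIV:8614775-8614974.
gst-5: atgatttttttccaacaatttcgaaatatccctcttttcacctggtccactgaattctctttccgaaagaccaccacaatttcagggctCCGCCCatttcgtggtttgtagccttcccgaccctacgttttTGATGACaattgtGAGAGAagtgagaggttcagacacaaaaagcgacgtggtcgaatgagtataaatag
ugt-58: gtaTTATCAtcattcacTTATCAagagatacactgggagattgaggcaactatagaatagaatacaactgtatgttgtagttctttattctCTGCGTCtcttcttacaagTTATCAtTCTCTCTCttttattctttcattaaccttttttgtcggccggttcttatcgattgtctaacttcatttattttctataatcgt
ugt-13: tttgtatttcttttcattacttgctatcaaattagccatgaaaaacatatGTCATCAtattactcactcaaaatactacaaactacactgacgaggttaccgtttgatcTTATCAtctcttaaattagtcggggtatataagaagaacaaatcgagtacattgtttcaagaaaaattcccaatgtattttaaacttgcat
ugt-20: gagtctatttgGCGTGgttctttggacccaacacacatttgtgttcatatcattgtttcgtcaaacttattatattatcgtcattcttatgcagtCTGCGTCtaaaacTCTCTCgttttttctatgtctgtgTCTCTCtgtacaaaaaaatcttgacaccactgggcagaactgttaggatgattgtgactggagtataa
cyp-33E3: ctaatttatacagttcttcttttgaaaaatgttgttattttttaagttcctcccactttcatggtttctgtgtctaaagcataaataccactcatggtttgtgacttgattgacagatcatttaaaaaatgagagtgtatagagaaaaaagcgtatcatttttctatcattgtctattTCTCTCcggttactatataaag
The gst-5 window holds 1 GAGAGA, 1 GTCATCA and 1 GGGCGG, and its base composition is 43% G or C. The ugt-58 window holds 3 TGATAA, 2 GAGAGA that overlap each other and 1 CTGCGTC. The GATA factors that read TGATAA include those of the intestine. The ugt-20 window also holds 1 CTGCGTC, with 2 GAGAGA and 1 GCGTG. The nuclear receptor half-site AGGTCA has no match in any of the 5 windows, which says only that these letters are not there.

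The values are the authors' peak lists, so read depth is unknown. Each replicate has a list of 30000 candidate regions, which holds peaks together with background, and a pooled list of the same length was made from both replicates. Every region carries a signal value set by the authors, which was used to rank the regions of a list from 1, the highest, and which compares regions of 1 list only. Signal ran from 12.5 to 1362 in the pooled list (median 17.1), from 8.37 to 917.6 in replicate 1 (median 11.3) and from 6.39 to 800.1 in replicate 2 (median 9.01). A further list of 159 peaks was derived with the irreproducible discovery rate, a method that weighs how regions are ordered in several lists. These peaks were the first 159 regions of the pooled list. For each gene the best-ranked region with its summit within 1 kb of the gene start was taken. In the pooled list 44.3% of nuclear bases lay within that distance of a summit, so a candidate region near a gene is common, whereas for the thresholded peaks the share was 0.265%.

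Of the 190 enzyme genes, 4 had a thresholded peak: gst-5, ugt-58, ugt-13 and ugt-20. This is 2.11% of the genes, beside 0.501% of all protein-coding genes. Of the peaks 3 stood at UGT genes and 1 at a GST gene, and none of the 74 P450 genes had one.

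The highest region stood upstream of gst-5, a glutathione S-transferase gene on chromosome II. It had a signal of 71.6 and rank 61 in the pooled list, with its summit at -121 bp from the gene start, where negative positions are upstream. In replicate 1 the best region had a signal of 42.8 and rank 64, and in replicate 2 a signal of 24.5 and rank 178. Both replicate regions overlapped the pooled one, and their summits lay at -127 bp and -145 bp, so this gene was high in all 3 lists.

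The region of ugt-58, also on chromosome II, was seen in 1 replicate. It had a signal of 56.9 and rank 98 in the pooled list, with its summit at -204 bp, and a signal of 46.1 and rank 47 in replicate 1. Replicate 2 held no region within 1 kb, and its nearest summit was 4475 bp downstream of the start at rank 26966. The peak thus passed the threshold although 1 of the 2 replicate lists lacked it.

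For ugt-13 on chromosome V the pooled region had a signal of 53.8 and rank 121, with its summit at -78 bp. Its rank was 93 in replicate 1 and 1404 in replicate 2, with signals of 36.0 and 16.6. The summit of replicate 2 lay at 88 bp, inside the gene. The replicates therefore differed in rank, although both regions overlapped the pooled one.

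For ugt-20 on chromosome IV the pooled region had a signal of 49.8 and rank 150, close to the lowest thresholded signal of 48.9. It ranked 225 in replicate 1 with a signal of 27.9 and 399 in replicate 2 with a signal of 21.0. The summits lay between -268 bp and -174 bp in the 3 lists. With gst-5, ugt-20 was the only member within the 1000 highest regions of both replicates. Within 1 kb of its start 89.6% of 31-base words occur once in the genome, and a lower share means that reads may have more than 1 possible place.

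**Figure D1:**
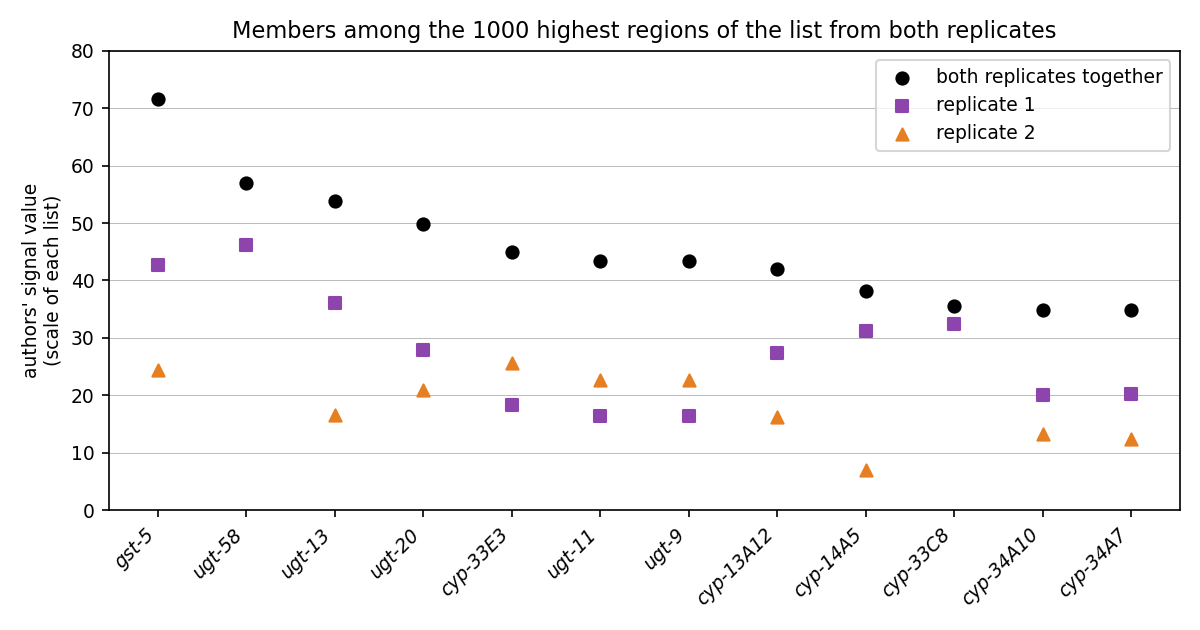
Signal of the best region within 1 kb of the start (vertical axis, the authors' value on the scale of each list) for the 12 enzyme genes among the 1000 highest pooled regions. Circles show the pooled list, squares replicate 1 and triangles replicate 2, and no triangle is drawn for ugt-58 and cyp-33C8, which had no region in replicate 2.

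Among the 1000 highest regions of the pooled list, 12 enzyme genes were found, 6 P450, 5 UGT and 1 GST. They are 6.32% of the 190, beside 3.09% of all protein-coding genes. By family the shares were 8.11% of P450, 7.46% of UGT and 2.04% of GST genes. The 5 UGT genes include ugt-9 and ugt-11, which share 1 region. In replicate 1 the 1000 highest regions also held 12 of the genes, 6.32% beside 3.03%. In replicate 2 they held 5, which is 2.63% beside 2.6%, so the excess over all genes stood in replicate 1 and the pooled list. Of the 12 pooled genes 9 ranked better in replicate 1 and 3 in replicate 2. Among all 618 protein-coding genes in the pooled 1000 highest, 343 ranked better in replicate 1 and 273 in replicate 2.

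Only gst-5 and ugt-20 were within the 1000 highest of both replicates. That is 1.05% of the enzyme genes, beside 0.711% of all protein-coding genes, a share near the background. Of all 618 genes in the pooled 1000 highest, 21.8% were also within the 1000 highest of both replicates, beside 2 of the 12 enzyme genes, or 16.7%.

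The P450 gene with the highest region was cyp-33E3 on chromosome IV. Its pooled region had a signal of 45.03 and rank 212, with the summit at -120 bp. It ranked 145 in replicate 2 with a signal of 25.7, and 2179 in replicate 1 with a signal of 18.3. This order is opposite to that of most of the 12 genes, and cyp-33E3 was the best-ranked enzyme gene of replicate 2. Its neighbours in name cyp-33E1 and cyp-33E2 had pooled ranks of 9995 and 11881. CYP-33E2 is known as an enzyme that makes eicosanoids from fatty acids.

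The start of cyp-13A12 on chromosome III carried a region with its summit at 43 bp, in the 5′ UTR, the only one of the 12 inside a gene. The pooled signal was 41.97 at rank 288, and the replicate 1 signal 27.4 at rank 246. The best region of replicate 2 ranked 1613 with a signal of 16.1, but its summit lay at 904 bp and it did not overlap the pooled region. Replicate 2 also had a region with its summit at 53 bp, at rank 13667 with a signal of 9.33. CYP-13A12 is known for a role in the behavioural response to oxygen after hypoxia, through fatty acid products.

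A further pair of P450 genes on chromosome V was high in replicate 1 alone. The region of cyp-14A5 had a pooled signal of 38.2 at rank 424 and ranked 151 in replicate 1 with a signal of 31.2, but 26200 in replicate 2 with a signal of 6.93. That gap of 26049 ranks was the largest among the enzyme genes within the 2000 highest pooled regions that had a region in both replicates. The region of cyp-33C8 had a pooled signal of 35.5 at rank 585 and a replicate 1 signal of 32.4 at rank 128. Replicate 2 had no region within 1 kb of cyp-33C8, and its nearest summit lay at -1957 bp with rank 4271.

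The last 2 of the 12 were a pair from the cyp-34A group on chromosome V, with almost the same signal. The pooled signal was 34.9 at rank 640 for cyp-34A10 and 34.8 at rank 654 for cyp-34A7. In replicate 1 they ranked 1318 and 1268, with signals of 20.1 and 20.2. In replicate 2 they ranked 4118 and 5464, with signals of 13.3 and 12.3. Their summits lay at -180 bp and -3 bp, and in neither replicate did they reach the 1000 highest regions.

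Replicate 1 placed 5 more enzyme genes in its 1000 highest: cyp-37A1 at rank 365, cyp-33A1 at 723, gst-7 at 741, cyp-33C4 at 781 and ugt-2 at 823. In replicate 2 gst-7 ranked 1512 and ugt-2 ranked 1220, whereas cyp-37A1 ranked 11628. No region within 1 kb was listed there for cyp-33A1 or cyp-33C4. The case of ugt-2 stands out, since the pooled list gave it only rank 14413. The summits of ugt-2 lay at different places, at -943 bp in replicate 1, -528 bp in replicate 2 and 921 bp in the pooled list.

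**Figure D2:**
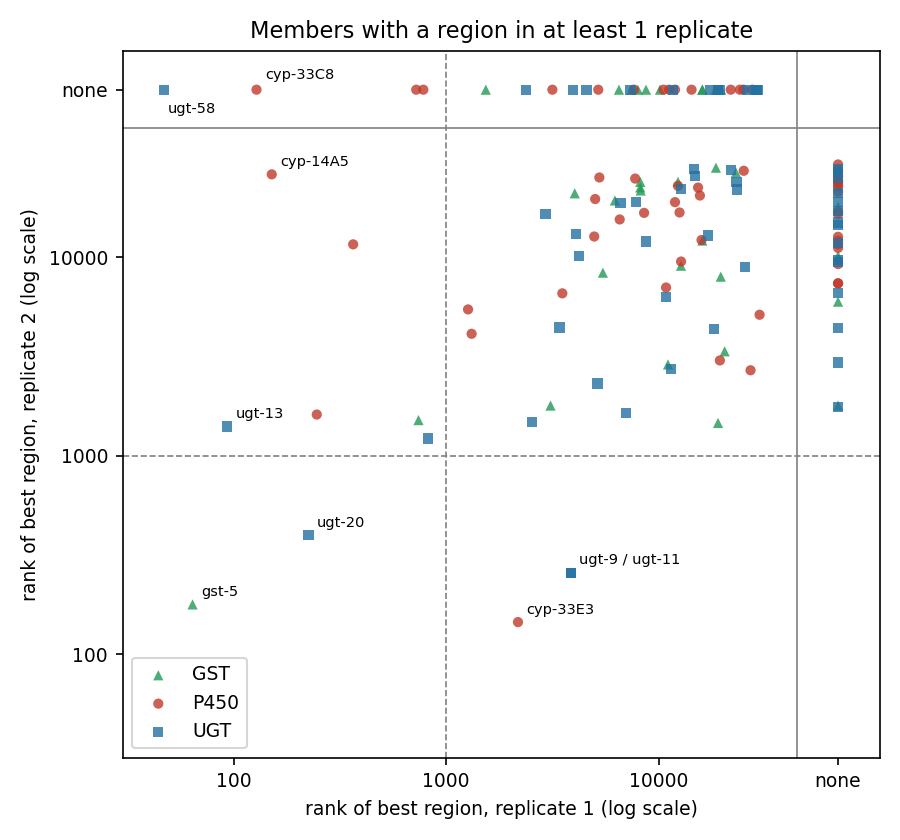
Rank of the best region in replicate 1 (horizontal, log scale) and replicate 2 (vertical, log scale) for the enzyme genes with a region in at least 1 replicate, with genes lacking a region placed on the line marked none. Dashed lines mark rank 1000, and only gst-5 and ugt-20 lie below it on both axes.

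Over the wider set of the 5000 highest pooled regions, 31 enzyme genes were found, 16.3% beside 11.6% of all protein-coding genes. The 31 were 11 P450, 14 UGT and 6 GST genes. In both replicates at once, 13 reached the 5000 highest, 6.84% beside 3.34%. These were gst-5, gst-7 and gst-27, the P450 genes cyp-33E3, cyp-13A12 and cyp-34A10, and the UGT genes ugt-2, ugt-9, ugt-11, ugt-13, ugt-14, ugt-20 and ugt-45. For some of them, such as cyp-13A12 and ugt-2, the best regions of the replicates lie at different places. The 7 UGT genes were 10.4% of their family, against 4.05% of P450 and 6.12% of GST genes. Of these 7, ugt-9 and ugt-11 share 1 region in each list, which is thus counted for both. The families were not compared by a test.

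A candidate region of any rank stood within 1 kb of 94 enzyme genes in the pooled list, 49.5% beside 46.2% of all protein-coding genes. In replicate 1 there were 107, or 56.3% beside 48.6%, and in replicate 2 there were 108, or 56.8% beside 48.3%. In both replicates 69 genes had one, 36.3% beside 29.7%. At the other end, 38 of the 190 had no region in any of the 3 lists, 20% beside 30.8% of all genes. Of these, 16 were P450, 12 UGT and 10 GST genes. The pooled shares were alike between families, at 51.4% of P450, 47.8% of UGT and 49% of GST genes.

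**Figure D3:**
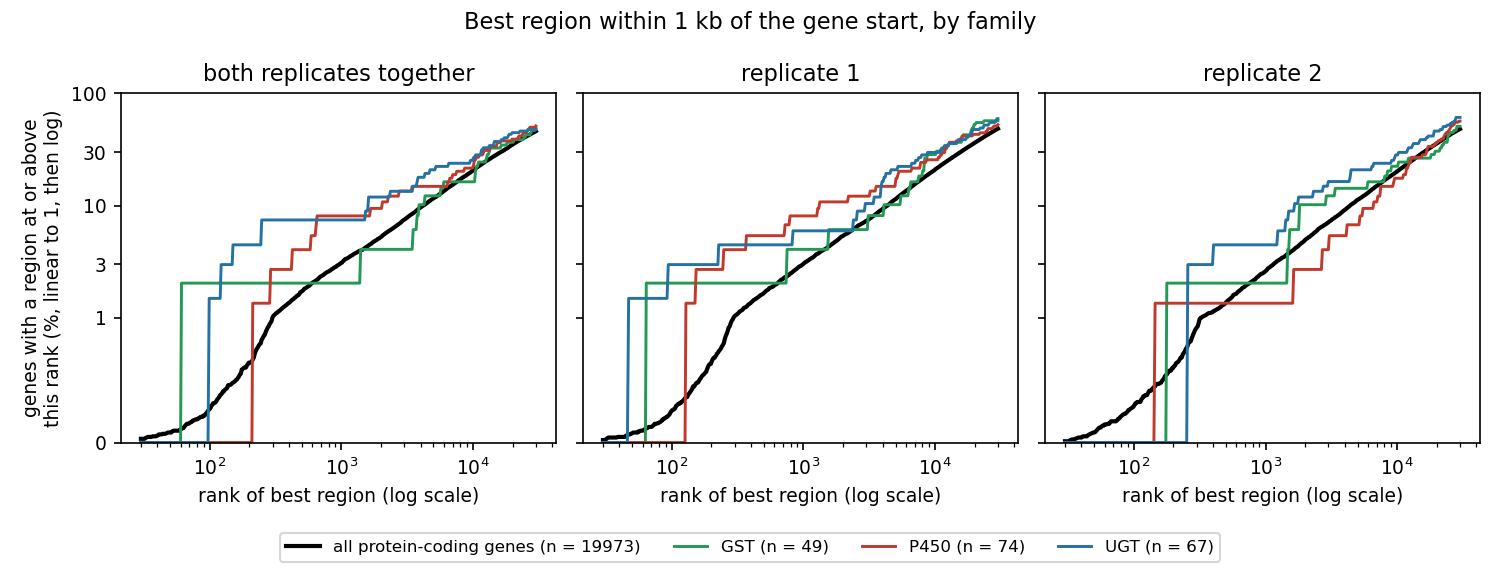
Share of genes in percent (vertical, linear to 1 and log above) whose best region lies at or above a rank (horizontal, log scale), for the 3 lists and for the 74 P450, 67 UGT and 49 GST genes beside all 19973 protein-coding genes. At rank 1000 the P450 and UGT lines stand above the black line in the pooled list, at 8.11% and 7.46% beside 3.09%, and the P450 line falls to 1.35% in replicate 2.

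The order of the families by median rank was not the same in the 3 lists. In the pooled list the median of the genes with a region was 8020 for UGT, 10349 for P450 and 11792.5 for GST, beside 11427.5 over all genes with a region. In replicate 1 GST had the best median at 9441.5, with 9786 for UGT and 10552 for P450, beside 11919.5 for all genes. In replicate 2 the medians were 11843 for UGT, 12154 for GST and 16020.5 for P450, beside 12287. The P450 median was thus a better rank than that of all genes in replicate 1 and a worse one in replicate 2. In all 3 lists the quartiles of the families overlapped, from 2159.25 to 14351.5 for UGT and from 2911.25 to 18907.5 for P450 in the pooled list.

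Among genes with a region in both replicates the ranks of the UGT genes went together most closely. The Spearman correlation across genes was 0.65 over 26 UGT genes, 0.31 over 18 GST genes and 0.10 over 25 P450 genes. Over all 69 enzyme genes it was 0.40, beside 0.17 over 5923 protein-coding genes. Genes are not independent replicates, neighbours such as ugt-9 and ugt-11 share a region, and the best region was not always the same stretch of DNA. In 27 of the 94 genes with a pooled region, the best regions of both replicates overlapped it. The share over all genes is not given here, so whether this is particular to the enzyme genes is unknown.

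Among UGT genes below rank 1000 the next were ugt-45 at rank 1508, ugt-14 at 1588 and ugt-22 at 1590. The region of ugt-22 had its summit in an intron at 475 bp, and it ranked 11477 in replicate 1 and 2732 in replicate 2. UGT-22 is known to lower the effect of the anthelmintic albendazole on the worm. For ugt-47 the best region within 1 kb ranked 16290, but a region of rank 395 lay just outside the window, at -1470 bp. The gene ugt-62 had a region in replicate 1 alone, at rank 3940.

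Among GST genes the order after gst-5 was gst-7 at rank 1395 and gst-27 at 3459. The summit of gst-7 lay in an intron at 643 bp in the pooled list and upstream in both replicates, at -56 bp and -334 bp. The same region falls at -1007 bp from gst-8, just outside the window, so it is counted for gst-7 only. Among the genes just inside the window, ugt-49 had its summit at -992 bp and cyp-35A3 at -998 bp.

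The GST gene used most as a reporter of SKN-1 activity, gst-4, had a region only in replicate 2, at rank 24011. The nearest pooled region stood at -1274 bp with rank 10282, where it lies within 1 kb of gst-3. No list held a region for gst-10, which conjugates the lipid peroxidation product hydroxynonenal, or for gst-38. None of the 31-base words around the start of gst-10 occurs once only in the genome, so its absence from the lists cannot be told apart from reads that could not be placed. The omega-class gene gsto-1 had a region in replicate 1 alone at rank 8728, and the kappa-class gene gstk-1 ranked 12721 in the pooled list and 5978 in replicate 2.

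Several P450 genes are much studied for their induction by foreign compounds. For cyp-35A2 the ranks were 26475 in the pooled list, 10851 in replicate 1 and 7046 in replicate 2, and exc-13 has the nearer start to the pooled summit. Of the 5 cyp-35A genes 4 had a pooled region, beside 46.2% of all protein-coding genes. The ranks were 7414 for cyp-35A3, 10154 for cyp-35A5 and 11052 for cyp-35A1, beside a median of 11427.5 over all genes with a region. The summit for cyp-35A3 lay at -998 bp, nearer to the start of K09D9.14. That for cyp-35A1 lay in a 3′ UTR at -617 bp. Replicate 1 had no region for cyp-35A1, and the best one of replicate 2 did not overlap the pooled region. The gene cyp-35C1 had rank 29860 in the pooled list and no region in either replicate. For cyp-35B1, known as a target of the insulin pathway, the ranks were 15352 in replicate 1 and 22476 in replicate 2, with none in the pooled list. Rifampicin-inducible cyp-13A7 ranked 15228, cyp-14A3 had only a region of rank 23465 in replicate 2, and cyp-34A9 had none in any list.

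The ranks of cyp-42A1 were 10494 in the pooled list and 12111 in replicate 2, both close to the medians over all genes. The gene cyp-44A1, which encodes a mitochondrial P450, had a region of rank 25580 in replicate 2 alone. The hormone-making P450 gene daf-9 lacks a cyp- symbol and was not counted among the P450 genes. It ranked 12759 in the pooled list and 6138 in replicate 1. DAF-9 makes the dafachronic acids that bind the receptor DAF-12. After the 6 P450 genes in the 1000 highest, the next were cyp-29A3 at rank 1660 and cyp-14A2 at 2031.

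Where neighbouring starts of 1 family lay within 10 kb, runs of at least 3 genes were called a cluster. There were 15 clusters with 80 genes, 6 of P450, 5 of UGT and 4 of GST genes. A pooled region was found at 46 of the clustered genes and at 48 of the other 110, 57.5% and 43.6%, beside 46.2% of all protein-coding genes. In the 1000 highest regions the shares were 6.25% and 6.36%, beside 3.09%. By family the counts were too small to compare. For UGT genes they were 3 of 25 in clusters and 2 of 42 outside, 12% and 4.76%, and 2 of the 3 clustered genes share 1 region. For P450 genes they were 2 of 30 and 4 of 44, 6.67% and 9.09%. For GST genes they were 0 of 25 and 1 of 24, 0% and 4.17%. Clustered genes stand close together, so they are not independent.

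The UGT cluster on chromosome V with starts from 4889629 to 4908884 had the highest regions of any cluster. In gene order it holds ugt-12, ugt-11, ugt-9, ugt-10, ugt-67, ugt-8, ugt-14 and ugt-13. Of the 8 genes 5 had a pooled region, in 4 distinct regions, and 3 were in the 1000 highest. At one end stood ugt-13 with rank 121, next to ugt-14 with rank 1588 and a summit at 20 bp.

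Near its other end, inside ugt-12, ugt-9 and ugt-11 are divergent neighbours that share 1 region. It had a pooled signal of 43.3 at rank 248, a replicate 2 signal of 22.6 at rank 257 and a replicate 1 signal of 16.3 at rank 3862. The summit lay at -76 bp from ugt-9 and at -901 bp from ugt-11, so the nearer start is that of ugt-9. Between these places ugt-8 ranked 9527 and ugt-10 and ugt-67 had no pooled region, nor had ugt-12, the outermost gene. The high regions therefore sat at 2 places in the cluster, and ugt-13 was higher in replicate 1 and ugt-9 in replicate 2.

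The cyp-34A cluster on chromosome V was next, with 6 genes, 3 of them with a region and 2 of those in the 1000 highest. Between cyp-34A7 and cyp-34A10 stand cyp-34A8, at rank 23770, and cyp-34A9, with no region. In the neighbouring cluster of cyp-35A5 and the cyp-35B genes the best was cyp-35A5 at rank 10154, a gene whose family is induced by many foreign compounds. In the cyp-33C cluster the best was cyp-33C4 at rank 3413, which was in the 1000 highest of replicate 1.

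The GST genes are gathered on chromosome II, where 26 of the 49 lie. In the cluster with starts from 15164553 to 15185389, 7 of 9 genes had their own region, the best being gst-27 at rank 3459, gst-35 at 3714 and gst-26 at 3867. None was in the 1000 highest. The median share of unique 31-base words was 84.1% in this cluster, the lowest of the 15, and the part of read placement in these ranks was not tested. In the cluster of gst-20 to gst-18, with 9 genes, 3 had a region and the best was gst-15 at rank 4290. In the cluster of gst-6 to gst-9 the best was gst-7, and in that of gst-3, gst-2 and gst-4 it was gst-3 at rank 10282.

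None of the other clusters had a gene in the 1000 highest. In the cyp-13A cluster on chromosome II, 6 of 8 genes had a region, with cyp-13A1 best at rank 2744, while cyp-13A6 and cyp-13A7 shared 1 region. The summit near cyp-13A1 lies in an intron of another gene. In the cyp-14A cluster on X, cyp-14A2 was the only one of 4 with a pooled region, at rank 2031. In the cyp-25A cluster on chromosome III the best was cyp-25A1 at rank 16317. Among the UGT clusters the best were ugt-25 at rank 5161 on chromosome I, ugt-37 at 6513, ugt-16 at 11444 and ugt-5 at 13138 on chromosome V.

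**Figure D4:**
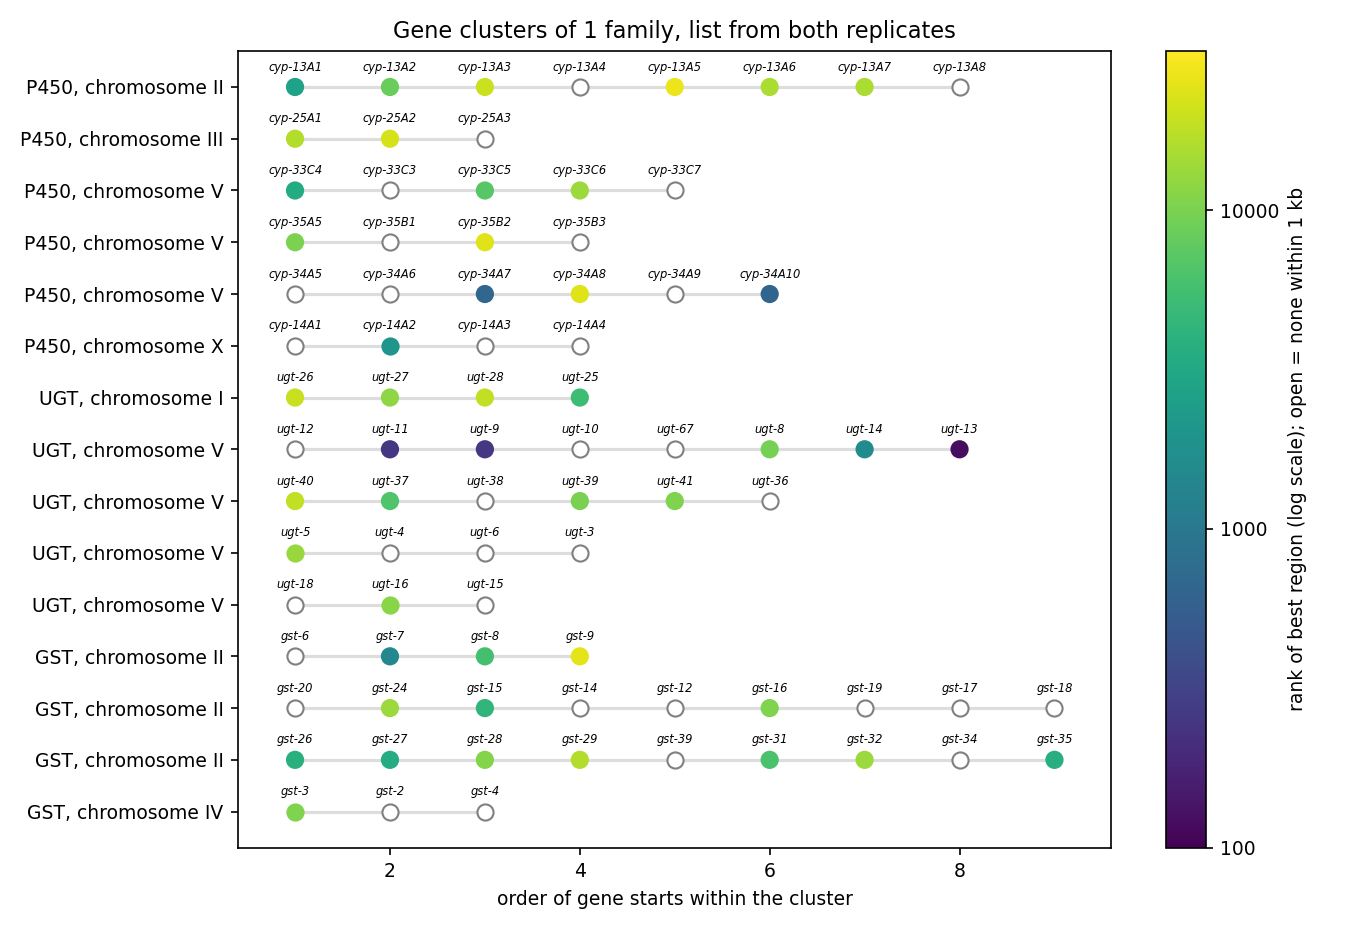
The 15 clusters in rows, with their genes in order of their starts (horizontal, place in the cluster) and the pooled rank of each gene's best region as colour on a log scale, open circles having none within 1 kb. The darkest circles are ugt-13, ugt-9 and ugt-11 on chromosome V, at ranks 121 and 248, and no GST cluster has a gene in the 1000 highest.

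By chromosome, 92 of the 190 genes lie on V, 39 on II, 24 on IV, 14 on X, 13 on III and 8 on I. On chromosome II 61.5% had a pooled region, beside 37.0% of all protein-coding genes there, and on V 47.8% beside 43.0%. On the other 4 chromosomes the shares of the enzyme genes were below those of all genes, for example 41.7% beside 48.9% on IV. Of the 12 genes in the 1000 highest, 7 lay on V, 2 each on II and IV, and 1 on III. On V this is 7.61% of the enzyme genes, beside 2.62% of all genes there. The shares were 5.13% beside 2.46% on II, 8.33% beside 3.32% on IV and 7.69% beside 4.17% on III. No enzyme gene on I or X was among them, beside 4.13% and 2.34% of all genes there.

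Summits of the highest regions lay close upstream of the enzyme genes. Of the 94 genes with a pooled region, 65 had the summit upstream of the start, 69.1% beside 63.2% of all 9224 genes with a region. Within 300 bp upstream there were 33, 35.1% beside 23.6%. Among the 12 genes in the 1000 highest there were 10, where the share over all genes was 43.0%. The exceptions were ugt-11 and cyp-13A12. Over the 5000 highest it was 15 of 31, beside 30.8%. By annotation the summit was intergenic for 57.4% of the 94, in an intron for 23.4% and in a coding exon for 10.6%, beside 53.5%, 26.2% and 11.3% of all genes.

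**Figure D5:**
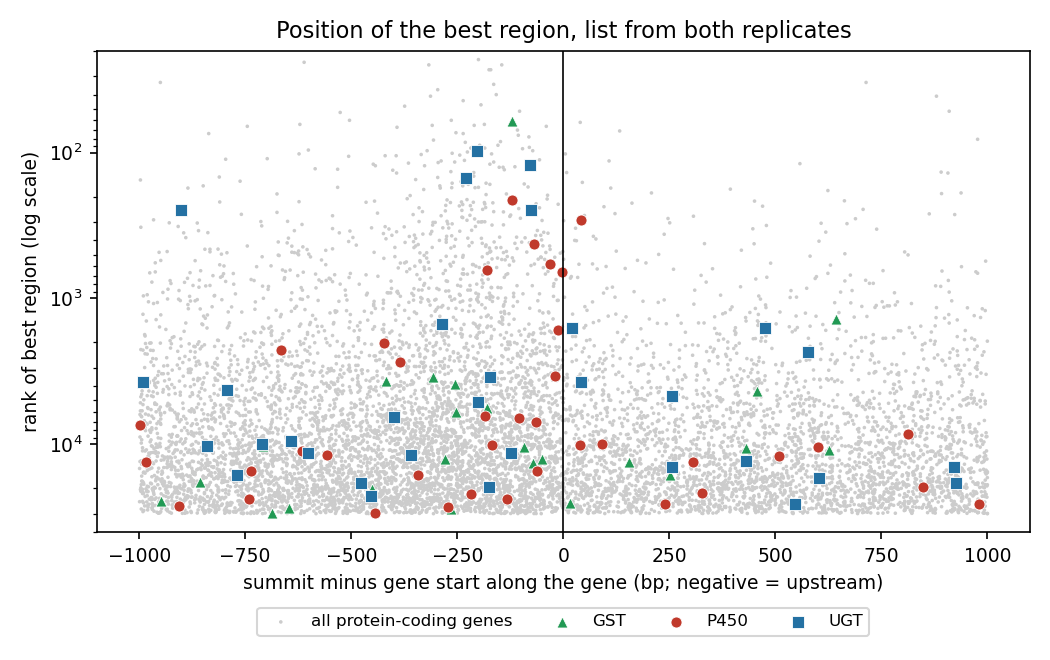
Position of the summit along the gene (horizontal, bp from the start, negative upstream) and pooled rank (vertical, log scale, highest at the top) for the 94 enzyme genes with a region and for all protein-coding genes in grey. Of the 12 enzyme genes above rank 1000, 10 lie within 300 bp upstream of the start.

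Regions can serve more than 1 gene. The 94 genes had 92 distinct pooled regions, and for 84 of them the gene was the one with the nearest start. For 21 another protein-coding start lay within 1 kb of the summit. Shares over all genes are not given here for these counts, which describe the enzyme genes only. Among the 12 highest genes only the shared region of ugt-9 and ugt-11 had a second start within that distance.

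Motif shares were taken over the 92 distinct regions and over 8053 pooled regions near any protein-coding gene, in windows of the same 200 bp. The median G and C content was 31.0% and 30.5%. TGATAA was in 26.1% of the enzyme gene regions and 20.7% of all regions, and GAGAGA in 15.2% and 10.3%. By family TGATAA was in 12 of 37 P450 regions, 10 of 31 UGT regions and 2 of 24 GST regions, or 32.4%, 32.3% and 8.33%. The exact 95% intervals were 18.0% to 49.8% for P450, 16.7% to 51.4% for UGT and 1.03% to 27.0% for GST. Each includes the 20.7% of all regions, and the families were not compared by a test. AGGTCA was in 4.35% beside 4.05%. Of the motifs linked to oxidant responses, GTCATCA, which contains the core bound by SKN-1, was in 5 of the 92 regions, 5.43% beside 2.05%. The antioxidant response element TGACNNNGC was in 4 of the 92, 4.35% beside 2.25%. The exact 95% intervals were 1.79% to 12.2% for GTCATCA and 1.20% to 10.8% for TGACNNNGC. Each includes the share over all regions, so no excess of these motifs is shown.

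The largest ratio between the shares was that of CTGCGTC, in 8 of the 92 regions. This is 8.70%, with an exact 95% interval of 3.83% to 16.4%, beside 2.51% of all regions. The interval covers counting error over regions only, and not the choice of this word as the largest ratio among 11 motifs. The motifs themselves were chosen with earlier results of these data known. Of the 8, 5 were UGT regions, those of ugt-58, ugt-20, ugt-63, ugt-49 and ugt-61, and the others were at cyp-33C8, gst-31 and gstk-1. These genes are named because of their values. The shares of the other motifs were 4.35% beside 2.82% for TGTTTAC, 5.43% beside 2.68% for GGGCGG and 2.17% beside 2.53% for CACGTG. For GCGTG, the core of the site of the aryl hydrocarbon receptor, they were 4.35% beside 9.28%. TGACTCA was in none of the 92, where counting error allows up to 3.93%, and in 1.60% of all regions.

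Repeated sequence bears on these families, since close copies lie side by side. Of the 190 genes 36 had under 90% unique 31-base words within 1 kb of the start, 18.9% beside 15.7% of all genes. Of the 36, 38.9% had a pooled region, and of the other 154, 51.9%. Over all genes the shares were 30.5% and 49.1%. There were 4 genes with under 50% unique words, gst-10, cyp-25A6, cyp-25A3 and cyp-25A4, and none of them had a pooled region. Over the 154 genes with mostly unique starts, 10 were in the 1000 highest pooled regions, 6.49% beside 3.40% of all such genes, and 3 had a thresholded peak, 1.95% beside 0.535%.

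Around these families, partners and neighbours of the pathway were counted in the same way. A list for redox partners and glutathione synthesis, with 6 genes found by symbol, also held daf-9 and sqv-4, which are neither. Of the 6, 4 had a pooled region, daf-9 among them, 66.7% beside 46.2% of all protein-coding genes. In the 1000 highest there were 2, 33.3% beside 3.09%. With 6 genes, listed with earlier results of these data known, these shares are coarse and no evidence of an excess. The P450 reductase gene emb-8 ranked 304 in the pooled list and 112 in replicate 1, with its summit at -863 bp, and had no region in replicate 2. The glutathione reductase gene gsr-1 ranked 837 in the pooled list, 658 in replicate 2 and 9113 in replicate 1. The glutathione synthetase gene gss-1 ranked 1790, while gcs-1, for the rate-limiting enzyme of glutathione synthesis, had no region in any list. Thus neither of the highest was high in both replicates.

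A further 98 genes were taken by symbol prefix for other phase I and II enzymes, such as alcohol, aldehyde and short-chain dehydrogenases. Of these, 55 had a pooled region, 56.1% beside 46.2% of all protein-coding genes. In the 1000 highest there was 1, 1.02% beside 3.09%, and none had a thresholded peak. This gene, ssu-2, was taken by its symbol alone, which does not show that it encodes such an enzyme. It ranked 178 in the pooled list and 138 in replicate 1, but 19576 in replicate 2. Another 45 genes were taken by symbol prefix for phase III transporters, which move drugs and conjugates across membranes. The prefix alone does not show that each product does so. Of the 45, 24 had a pooled region, 53.3% beside 46.2%, and 1 was in the 1000 highest, 2.22% beside 3.09%. This was haf-3, which had a thresholded peak with rank 93, and ranked 143 in replicate 1, with a replicate 2 signal of 22.98 that was also among the 1000 highest.

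The 28 regulator genes of xenobiotic responses were listed with earlier results of these data known, so their shares are no evidence of an excess. Of the 28, 23 had a pooled region, 82.1% beside 46.2% of all protein-coding genes, and 4 were in the 1000 highest, 14.3% beside 3.09%. One of them, wdr-23, whose product directs SKN-1 to degradation, had a thresholded peak with rank 92 in the pooled list, 83 in replicate 1 and 63 in replicate 2. The intestinal GATA factor gene elt-7 ranked 363, 882 and 656 in the same order of lists. The gene zip-2 ranked 191 in the pooled list and 71 in replicate 1, but 22590 in replicate 2, and nhr-86 ranked 430, 3755 and 734. For skn-1 the ranks were 1712 in the pooled list and 870 in replicate 2, with no region in replicate 1. No list held a region within 1 kb of the start of nhr-28 itself.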

How the data were processed

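The authors deposited peak lists in narrowPeak format. Per the deposited file listing, they made a list of candidate regions from each replicate and a control, another from both replicates and the control, and a thresholded list by the irreproducible discovery rate. The signal of each region is the authors' value, relative to a control per the deposited file listing. Aligner, caller, threshold and versions were not given in the sources used here, and depth is unknown. The replicate numbers come from the labels. Only the ce11 lists were used here.

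Gene starts came from Ensembl release 115 (WBcel235), and no region reached past a chromosome end. Each gene took the best-ranked region with a summit within 1000 bp, so 1 region can serve several genes. Ranks were computed with pandas 2.3.3 and the assignment was checked on simulated data. Motifs were searched in 200 bp around summits.

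The genes, lists and motifs were chosen with earlier results of these data known. Named genes were those with a thresholded peak, the 15 best pooled ranks, members in the 1000 highest of both replicates, the 3 best per family, the best per cluster, the 3 largest gaps between replicates, and much-studied genes. Other names follow from their values. Alternatives were other windows, rank limits, gene starts and motif windows, each replicate alone, and genes with unique 31-mers, the last chosen after seeing the data.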

Additional observations from a re-analysis of the deposited data

How the results depend on the processing

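No paired analysis was possible because there is 1 group. Of the main results under the alternatives, 43 values stayed within their limits and 12 moved, and for the motif shares the numbers were 17 and 5. These limits were wide. A count of 122 enzyme genes with a candidate region at 2 kb, beside 94 at 1 kb, stayed within them. So did 17 genes in the 2000 highest pooled regions, beside 12 in the 1000 highest. With a limit of 2000 or 5000 regions, 6 or 13 genes were within the highest of both replicates, and with 5000 the pooled count was 31. At 5000 the shares were 6.84% beside 3.34% of all genes in both replicates, and 16.3% beside 11.6% in the pooled list. At 2000 no share over all genes is given here. With genes of at least 90% unique 31-mers, chosen after seeing the data, 1 was in the 1000 highest of both replicates. This is 0.649%, below the 0.766% of all such genes. Only 1 thresholded peak, that of gst-5, had a signal above the median of the thresholded list. With a 2 kb window the UGT median rank was 9527. At 2 kb 64.2% of enzyme genes had a candidate region, beside 63.6% of all protein-coding genes, where 1 kb gave 49.5% beside 46.2%. In the 1000 highest the 2 kb shares were 6.84% beside 4.82%, where 1 kb gave 6.32% beside 3.09%. Both differences were thus smaller with the wider window. With the window narrower than 1 kb the shares were 38.9% beside 30.4% and 5.79% beside 2.14%, in the same order. With 1 replicate left out, genes among the 159 highest regions ranged from 1 to 5, genes in the 1000 highest from 5 to 12, and genes with a candidate region from 107 to 108. The median ranks then ranged from 10552 to 16020.5 for P450, from 9786 to 11843 for UGT and from 9441.5 to 12154 for GST. The lower counts among the 159 and the 1000 highest regions are those of replicate 2 alone, and the cause was not tested. Without read counts, the precision of low ranks is unknown.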
